A study of Mus musculus with 12 samples.

Results

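The desmosome is the junction that anchors the keratin filaments of neighbouring keratinocytes to each other. Its desmosomal cadherins, the desmogleins and desmocollins, bridge the gap between the cells. Inside each cell plakoglobin and the plakophilins bind the cadherin tails, and desmoplakin links this plaque to keratin. In the outermost epidermis desmosomes become corneodesmosomes, which are sealed by corneodesmosin and later cut by proteases as the skin sheds. Desmoglein 1, desmocollin 1 and corneodesmosin are known mainly from the upper epidermis, desmoglein 3 and desmocollin 3 from its lower layers, and desmoglein 2 and desmocollin 2 from simple epithelia and hair follicles. The 10 genes described here were chosen by name as components of this junction. They are the desmogleins *Dsg1a*, *Dsg2* and *Dsg3*, the desmocollins *Dsc1*, *Dsc2* and *Dsc3*, the plaque genes *Dsp* (desmoplakin), *Pkp1* (plakophilin 1) and *Jup* (plakoglobin), and *Cdsn* (corneodesmosin). They are 10 of the 56923 genes counted, and all 10 passed the filter on low counts, as did 18529 genes in all.

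RNA of mouse back skin was sequenced to ask how skin treated with imiquimod differs between wild type mice and mice without lipocalin 2. Imiquimod (IMQ) is a Toll-like receptor agonist whose cream gives mice psoriasis-like skin lesions. Per the study's methods the mice were female C57BL/6 animals aged 8 to 10 weeks, *Lcn2*-/- mice were bought from the Jackson Laboratory, and WT littermates were the controls. The 4 groups of 3 mice were WT control, WT IMQ, KO-labelled control and KO-labelled IMQ. The IMQ groups had 5% IMQ cream on the shaved back each day for 6 days, and the control groups vehicle cream, although their treatment label reads none. A germline deletion acts in every cell, so an effect cannot be assigned to keratinocytes. Whole skin was used, and in such bulk samples fewer cells of a type and less RNA per cell cannot be told apart.

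The libraries held 16448226 to 28592110 counts on genes, and no pair of libraries of a group agreed within sampling noise. *Lcn2* itself had 136, 201 and 86 counts in the WT control mice and 1010, 2723 and 1572 in the WT IMQ mice. It also had 320, 173 and 357 counts in the KO-labelled control mice and 561, 511 and 830 in the KO-labelled IMQ mice. These reads do not show a loss of the gene, the repository's genotype label says knockdown, and which part of *Lcn2* the reads cover is not shown by a gene count, so the genotype is given as labelled throughout. The extraction protocol names retinas, whereas 10 retina markers together reached at most 5.95 CPM (reads scaled to the TMM-normalized size of the library) in any library. Markers of basal and suprabasal keratinocytes were abundant in every library.

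Levels were compared between genes as CPM per kilobase of annotated exon. In WT control skin *Dsp* had the highest mean level, 104 ± 24.4 CPM per kb (SD, n = 3). It was followed by *Pkp1*, *Cdsn*, *Dsc3*, *Dsg1a* and *Jup*, the last at 52.5 ± 14.2 CPM per kb (SD, n = 3), and each of these overlapped its neighbour in the order. *Dsc1* at 30.3 ± 9.56 CPM per kb (SD, n = 3) overlapped *Jup* but not *Dsg3*, which had 12.9 ± 2.78 CPM per kb (SD, n = 3). *Dsc2* and *Dsg2* were lowest, at 4.49 ± 0.75 and 3.78 ± 1.19 CPM per kb (SD, n = 3), and overlapped each other. The KO-labelled control skin had the same order, from *Dsp* at 126 ± 41.9 to *Dsg2* at 4.89 ± 1.62 CPM per kb (SD, n = 3). In WT IMQ skin *Pkp1* led, at 310 ± 59.3 CPM per kb (SD, n = 3), and overlapped *Dsp*. *Dsc1* stood before *Dsc3* there, and their values overlapped. In KO-labelled IMQ skin *Cdsn* led, at 218 ± 32.7 CPM per kb (SD, n = 3), and overlapped *Pkp1*.

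In WT skin, 7 of the 10 genes rose with IMQ and none fell. Over all genes tested 14.2% were called higher. A gene was called where its Benjamini-Hochberg adjusted p, over all 18529 genes and by the quasi-likelihood F test in edgeR, was under 0.05. *Dsg3*, *Dsc1* and *Pkp1* rose most, by more than the spread between mice. The values of the IMQ mice lay above those of all control mice for 9 of the 10 genes, *Dsg2* being the exception, against 20.1% of all genes. The median log2 fold change of the 10 genes was 1.27, and that of all genes -0.02. Basal keratinocyte markers (7 of 9 called higher and 1 lower) and suprabasal ones (10 of 12 called higher) moved with the same groups. Their summed levels rose from 3638 to 5394 CPM in WT control mice to 15800 to 22953 CPM in WT IMQ mice for the basal list. For the suprabasal list they were 4347 to 6405 CPM and 21288 to 24241 CPM. The part of keratinocyte content in the changes was not tested. The same 7 genes were called with each of these 6 mice left out in turn, and *Dsg2* was added as lower without WT control mouse 2. In the plot of levels by mouse, these 7 genes have WT IMQ points clear of the WT control points.

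**Figure D1:**
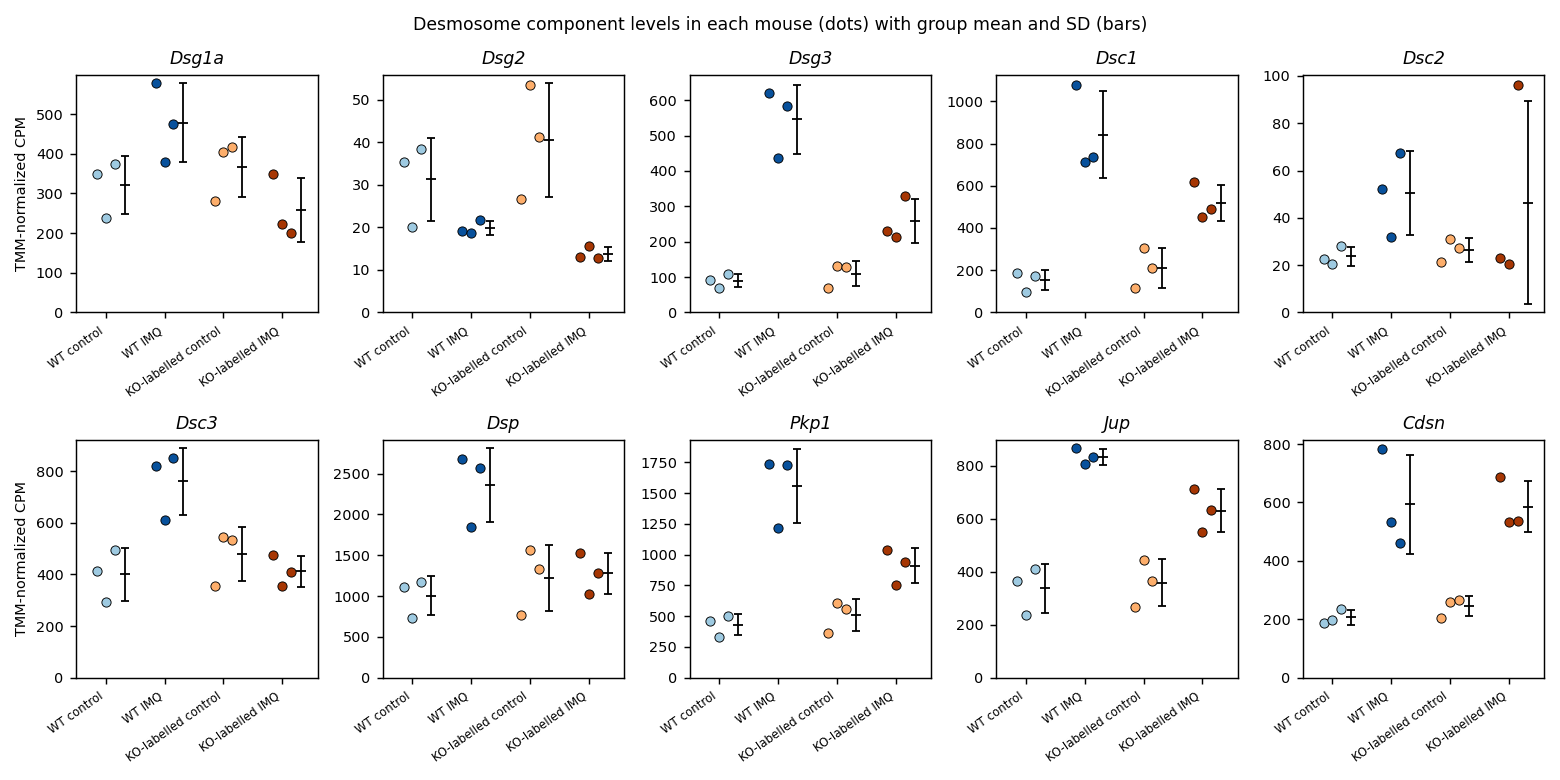
Level of each desmosome gene in each mouse, as TMM-normalized CPM on linear axes that start at 0, with 1 panel per gene. Dots are mice 1, 2 and 3 of the 4 groups and bars show the group mean and SD (n = 3); for *Dsg3* the WT IMQ mice lie between 436 and 620 CPM and the WT control mice between 69.8 and 108 CPM.

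Desmoglein 3 (*Dsg3*, ENSMUSG00000056632, chromosome 18 from 20510274 to 20547459, plus strand) is the adhesion molecule of the lower epidermis that pemphigus vulgaris antibodies bind. WT control mice 1, 2 and 3 had 92.2, 69.8 and 108 CPM, and WT IMQ mice 1, 2 and 3 had 620, 436 and 584 CPM. The groups were far apart, and the lowest IMQ mouse was above every control mouse. *Dsg3* was 6.06-fold higher with IMQ (log2 fold change 2.60, SE 0.28, adjusted p = 7.3e-05, edgeR quasi-likelihood F test). Desmoglein 1 alpha (*Dsg1a*, ENSMUSG00000069441, chromosome 18 from 20310811 to 20343350, plus strand) is 1 of 3 mouse copies of desmoglein 1. It had 349, 238 and 375 CPM in the WT control mice and 580, 380 and 476 CPM in the WT IMQ mice. The lowest IMQ mouse was only just above the highest control mouse, and *Dsg1a* was not called (log2 fold change 0.58, 95% interval 0.02 to 1.13, adjusted p = 0.112, edgeR quasi-likelihood F test). Its paralogs *Dsg1b* and *Dsg1c* can share reads with it, and with the counts of the 3 copies summed the log2 fold change was 0.98 (adjusted p = 0.0101, same edgeR test). Desmoglein 2 (*Dsg2*, ENSMUSG00000044393, chromosome 18 from 20558074 to 20604521, plus strand) had 35.3, 20.05 and 38.3 CPM in the WT control mice and 19.2, 18.7 and 21.8 CPM in the WT IMQ mice. Control mouse 2 fell within the IMQ range, and *Dsg2* was not called (log2 fold change -0.65, SE 0.27, adjusted p = 0.0879, edgeR quasi-likelihood F test). Without WT control mouse 2 it was called lower, with a log2 fold change of -0.89 (adjusted p = 0.0168, same edgeR test).

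Desmocollin 1 (*Dsc1*, ENSMUSG00000044322, chromosome 18 from 20084184 to 20114871, minus strand) is the desmocollin of the upper epidermis. WT control mice 1, 2 and 3 had 188, 98.0 and 173 CPM, and WT IMQ mice 1, 2 and 3 had 1078, 714 and 735 CPM. The groups did not overlap, and *Dsc1* was 5.51-fold higher (log2 fold change 2.46, SE 0.35, adjusted p = 0.00045, edgeR quasi-likelihood F test). Desmocollin 3 (*Dsc3*, ENSMUSG00000059898, chromosome 18 from 19960930 to 20002351, minus strand), the desmocollin of basal keratinocytes, had 413, 292 and 496 CPM in the WT control mice and 821, 609 and 849 CPM in the WT IMQ mice. Its groups did not overlap either, and the rise was 1.90-fold (log2 fold change 0.93, SE 0.23, adjusted p = 0.0105, same edgeR test). Desmocollin 2 (*Dsc2*, ENSMUSG00000024331, chromosome 18 from 20030633 to 20059554, minus strand) had 22.7, 20.4 and 28.1 CPM in the control mice and 52.1, 31.9 and 67.4 CPM in the IMQ mice. Every IMQ mouse was above every control mouse, but the IMQ mice differed among themselves by more than those of any other of the 10 genes in WT skin (CV 35.3%), and *Dsc2* was not called (log2 fold change 1.09, SE 0.51, adjusted p = 0.128, edgeR quasi-likelihood F test).

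Of the plaque genes, plakophilin 1 (*Pkp1*, ENSMUSG00000026413, chromosome 1 from 135871395 to 135919207, minus strand) clusters the cadherins of the upper epidermis. It had 457, 334 and 503 CPM in the WT control mice and 1734, 1215 and 1727 CPM in the WT IMQ mice. All 3 IMQ mice were above all controls, and *Pkp1* rose 3.61-fold (log2 fold change 1.85, SE 0.24, adjusted p = 0.0002, edgeR quasi-likelihood F test). Plakoglobin (*Jup*, ENSMUSG00000001552, chromosome 11 from 100368958 to 100397763, minus strand), which also serves adherens junctions, had 366, 235 and 412 CPM in the control mice and 867, 805 and 832 CPM in the IMQ mice. The IMQ mice were close together and all above the controls, a 2.47-fold rise (log2 fold change 1.31, SE 0.22, adjusted p = 0.00136, same edgeR test). Desmoplakin (*Dsp*, ENSMUSG00000054889, chromosome 13 from 38151294 to 38198577, plus strand) had 1106, 735 and 1173 CPM in the control mice and 2673, 1846 and 2563 CPM in the IMQ mice. Its groups did not overlap, and the rise was 2.35-fold (log2 fold change 1.23, SE 0.28, adjusted p = 0.00662, edgeR quasi-likelihood F test). Corneodesmosin (*Cdsn*, ENSMUSG00000039518, chromosome 17 from 35552128 to 35557180, plus strand) had 188, 197 and 236 CPM in the WT control mice and 784, 534 and 462 CPM in the WT IMQ mice. All IMQ mice again exceeded all controls, and *Cdsn* rose 2.86-fold (log2 fold change 1.52, SE 0.20, adjusted p = 0.000289, same edgeR test).

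*Jup*, *Dsp* and *Cdsn* are 3 of the 7 genes called higher in WT skin, and were not picked by the size or likeness of their rise. The 250 bases before their RefSeq start sites (GRCm38.p6) are shown so that their proximal promoters can be compared. The promoters of the other genes called higher, *Dsg3*, *Dsc1*, *Dsc3* and *Pkp1*, are not shown. Capitals mark GC boxes (GGGCGG, or CCGCCC on the other strand) and KLF-type motifs (CACCC, or GGGTG on the other strand), and each sequence is printed on the strand of its gene. The *Jup* window is chr11:100397791-100398040 on the minus strand, the *Dsp* window is chr13:38151044-38151293 on the plus strand, and the *Cdsn* window is chr17:35551878-35552127 on the plus strand. RefSeq gives *Cdsn* a second start 9027 bases upstream of the GENCODE start used here, whose window has 55.2% GC and none of the motifs searched.
Jup: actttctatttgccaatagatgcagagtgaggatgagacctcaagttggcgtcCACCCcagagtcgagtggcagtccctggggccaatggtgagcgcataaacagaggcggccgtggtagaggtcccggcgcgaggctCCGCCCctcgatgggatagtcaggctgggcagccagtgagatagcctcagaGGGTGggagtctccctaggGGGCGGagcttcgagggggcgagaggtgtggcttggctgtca
Dsp: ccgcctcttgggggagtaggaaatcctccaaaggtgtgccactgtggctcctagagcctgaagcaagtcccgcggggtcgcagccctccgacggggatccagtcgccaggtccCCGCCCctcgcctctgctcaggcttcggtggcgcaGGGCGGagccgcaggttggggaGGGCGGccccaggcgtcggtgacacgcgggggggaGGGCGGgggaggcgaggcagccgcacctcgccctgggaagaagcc
Cdsn: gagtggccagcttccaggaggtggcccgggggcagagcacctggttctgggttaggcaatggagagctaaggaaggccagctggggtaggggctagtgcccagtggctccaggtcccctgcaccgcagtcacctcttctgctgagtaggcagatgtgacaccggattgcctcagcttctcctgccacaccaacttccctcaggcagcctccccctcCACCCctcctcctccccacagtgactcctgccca
The *Dsp* window held 4 GC boxes, the *Jup* window 2 GC boxes and 2 KLF-type motifs, and the *Cdsn* window 1 KLF-type motif. The GC content was 72.4%, 62.0% and 64.0% for *Dsp*, *Jup* and *Cdsn*, against a median of 52.4% over all promoters. A GC box stood in 32.7% and a KLF-type motif in 52.0% of the 32851 RefSeq promoters, each searched over the 250 bases before its start. These motifs do not overlap each other in the windows shown. No match was found in these 3 windows to the AP-1 motif TGANTCA (6.75% of promoters), the grainyhead-like motif AACNGGTT (1.79%), the E-box CACGTG (6.02%) or the TATA box TATAAA (12.4%), on either strand.

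Within the cadherin families the make-up of the reads differed between control and IMQ skin. As a share of desmoglein reads per kilobase, *Dsg1a* made up 65.8% ± 1.71 (SD, n = 3) in WT control skin and 37.4% ± 0.59 (SD, n = 3) in WT IMQ skin. *Dsg3* made up 15.1% ± 1.06 (SD, n = 3) and 34.99% ± 1.96 (SD, n = 3), and *Dsg2* 4.33% ± 0.36 (SD, n = 3) and 1.10% ± 0.22 (SD, n = 3). The share of *Dsg1b*, an upper-epidermal paralog of *Dsg1a*, was 12.1% ± 0.74 (SD, n = 3) in control and 26.4% ± 1.80 (SD, n = 3) in IMQ skin. It rose while that of *Dsg1a* fell. These copies can share reads, so in all groups the split between them may depend on how reads were assigned. The share of the summed copies is not given. Of the desmocollin reads per kilobase, *Dsc1* made up 27.6% ± 3.50 (SD, n = 3) in WT control skin and 52.5% ± 5.61 (SD, n = 3) in WT IMQ skin, and *Dsc3* 68.2% ± 2.96 and 44.5% ± 4.77 (SD, n = 3). For each of these 6 genes no IMQ mouse overlapped a control mouse, and the two-sided exact permutation p was 0.1, the smallest that 3 mice against 3 can give. Shares within a family add up to the whole, so the changes of its genes are not separate observations. In KO-labelled skin the *Dsg1a* share was 62.4% ± 6.67 (SD, n = 3) without IMQ and 36.3% ± 8.58 (SD, n = 3) with it, and the *Dsc1* share 29.9% ± 5.72 and 54.7% ± 3.40 (SD, n = 3). The *Dsc1* and *Dsc3* shares of the KO-labelled IMQ mice overlapped those of the WT IMQ mice (exact permutation p = 0.6 and 0.3), with differences in the means of 2.25 and -3.92 percentage points. The *Dsg1b* share was 32.3% ± 2.14 (SD, n = 3) in KO-labelled IMQ mice, 5.92 percentage points above that of the WT IMQ mice and without overlap (exact permutation p = 0.1). The share of *Dsg1c*, under 1% of the desmoglein reads per kilobase in every mouse, did not overlap between the IMQ groups either. It was 0.0948% in KO-labelled and 0.0444% in WT IMQ mice on average. These shares rest on 7, 7 and 10 counts in the KO-labelled and 9, 4 and 9 in the WT IMQ mice, and its level in CPM overlapped between them. *Pkp1* was the main plakophilin throughout, at 67.8% ± 2.33 (SD, n = 3) of plakophilin reads per kilobase in WT control skin and 73.1% ± 1.32 (SD, n = 3) in WT IMQ skin.

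**Figure D2:**
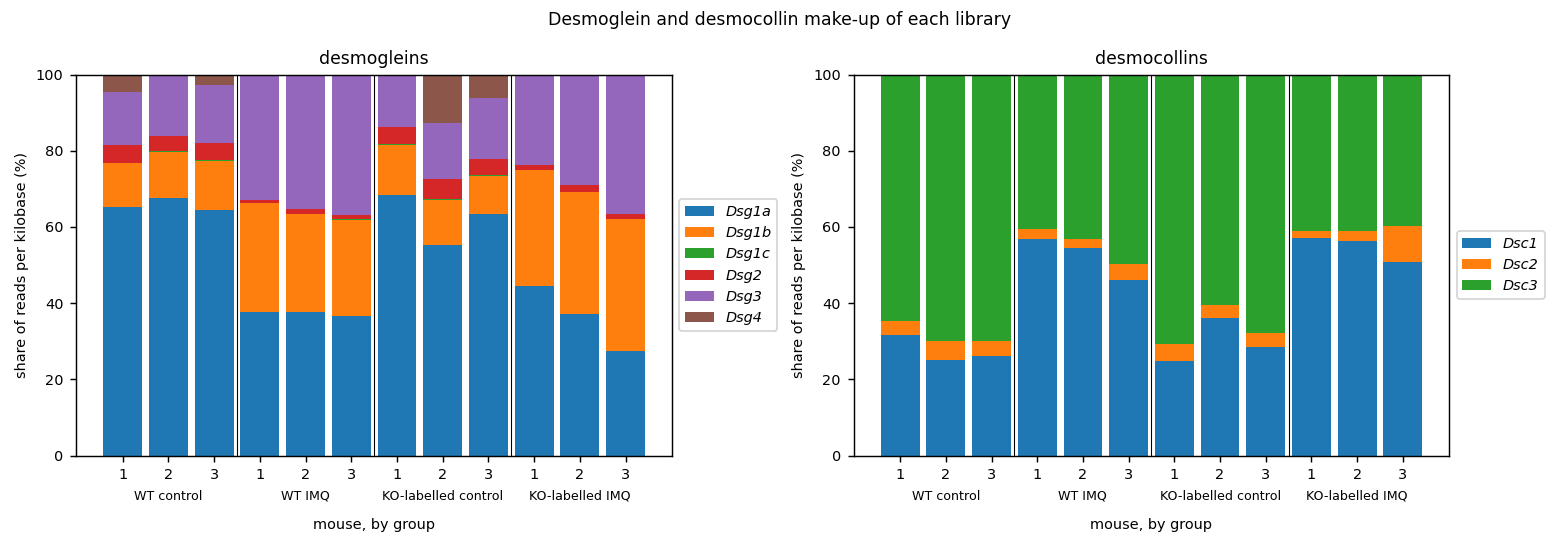
Make-up of the desmoglein (left) and desmocollin (right) reads per kilobase of exon in each of the 12 libraries, as stacked bars that add to 100%, with mice 1 to 3 of each group side by side. The *Dsg1a* segment is at most 44.4% in IMQ mice and at least 55.3% in control mice, and *Dsc1* is at least 46.2% in IMQ mice and at most 36.1% in control mice.

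IMQ-treated skin was then compared between the genotype labels, and 2 of the 10 genes, *Dsg3* and *Dsc3*, were lower in KO-labelled IMQ than in WT IMQ mice. Over all genes tested 2.6% were called lower. All 10 log2 fold changes were below 0, as were those of 51.2% of all genes, and their median was -0.74. KO-labelled IMQ mice lay below all WT IMQ mice for 8 of the 10 genes (all but *Dsc2* and *Cdsn*), against 17.3% of all genes. The calls depended on single mice, as did nearly all lower calls in this comparison. Neither gene was called when WT IMQ mouse 1 or 3 or KO-labelled IMQ mouse 1, 2 or 3 was left out, with *Dsg3* then between -1.30 and -0.96 and *Dsc3* between -0.99 and -0.78 on the log2 scale. Those 5 fits called at most 3 genes lower over all genes, against 481 with all mice. Without WT IMQ mouse 2, 5 genes were called lower (*Dsg1a*, *Dsg3*, *Dsc3*, *Dsp* and *Pkp1*), as were 1438 of 19248 genes in that fit. DESeq2 called those same 5 genes and 1261 of 18576 genes lower, *Dsc3* missed the threshold with RLE size factors (adjusted p = 0.0501) and *Dsg3* without the filter on low counts (adjusted p = 0.0756, edgeR in both). The basal keratinocyte markers were lower with the same groups, 9431 to 13437 CPM against 15800 to 22953 CPM in sum, with 3 of 9 called lower and 9 of 9 below 0. Suprabasal markers summed to 10734 to 21954 CPM against 21288 to 24241 CPM, with 2 of 12 called lower, and fibroblast markers to 20571 to 21420 CPM against 10550 to 11241 CPM, with 3 of 10 called higher. The part of this cell make-up in the differences was not tested.

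The KO-labelled IMQ mice 1, 2 and 3 had 231, 213 and 328 CPM of *Dsg3*. These values lay between those of the control and WT IMQ mice, with no overlap with either WT group. Compared with WT IMQ, *Dsg3* was 2.12-fold lower (log2 fold change -1.09, SE 0.27, adjusted p = 0.0465, edgeR quasi-likelihood F test). *Dsc3* had 475, 355 and 408 CPM in the KO-labelled IMQ mice, all below the lowest WT IMQ mouse and within the range of the control mice. It was 1.84-fold lower than in WT IMQ mice (log2 fold change -0.88, SE 0.23, adjusted p = 0.0492, same edgeR test). *Dsg1a*, with 350, 223 and 199 CPM, *Dsp*, with 1529, 1019 and 1287 CPM, and *Pkp1*, with 1035, 752 and 944 CPM, also lay below every WT IMQ mouse. Their log2 fold changes were -0.89, -0.89 and -0.78, and their adjusted p of 0.0643, 0.0768 and 0.0691 in the edgeR quasi-likelihood F test missed the threshold. *Dsc1* had 617, 454 and 488 CPM (log2 fold change -0.70, 95% interval -1.42 to 0.03) and *Jup* 711, 549 and 632 CPM (log2 fold change -0.40, 95% interval -0.88 to 0.07). For both, all KO-labelled IMQ mice were below the WT IMQ mice, and neither was called. *Cdsn*, with 686, 532 and 537 CPM, overlapped the WT IMQ mice, and its log2 fold change of -0.02 had a 95% interval of -0.46 to 0.41. *Dsc2* had 22.9, 20.4 and 96.0 CPM, with mouse 3 far above the other two, and the 95% interval of its log2 fold change was -1.21 to 0.97.

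**Figure D3:**
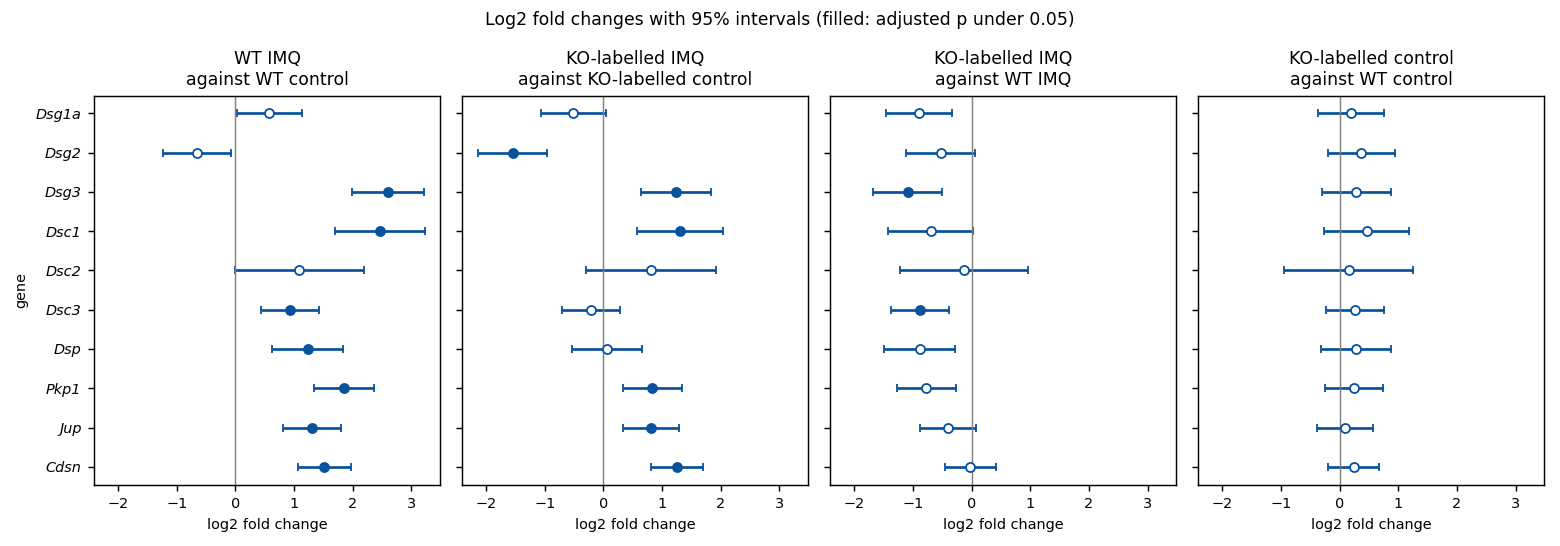
Log2 fold change of each desmosome gene in 4 comparisons, with 95% intervals from the edgeR fit over 12 mice. Filled points have an adjusted p under 0.05; 7 points are filled for IMQ in WT mice, 6 for IMQ in KO-labelled mice, 2 between the IMQ groups and 0 between the control groups.

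Among the KO-labelled mice, 5 of the 10 genes rose with IMQ, against 14.1% of all genes, and *Dsg2* fell, against 11.2% of all genes. In the same comparison 5 of 9 basal and 10 of 12 suprabasal keratinocyte markers, 5 of 10 fibroblast and 6 of 8 endothelial markers were called higher, and 12 of 12 hair markers lower, and their part in the changes was not tested. *Cdsn* rose from 206, 261 and 267 CPM in the KO-labelled control mice (log2 fold change 1.26, SE 0.20, adjusted p = 0.00141, edgeR quasi-likelihood F test). *Dsg3* rose from 67.9, 132 and 129 CPM (1.23 on the log2 scale, SE 0.27, adjusted p = 0.00761, same edgeR test). *Dsc1* rose from 117, 305 and 210 CPM (1.30 on the log2 scale, SE 0.34, adjusted p = 0.0163, same edgeR test). *Pkp1*, from 366, 609 and 559 CPM, and *Jup*, from 266, 446 and 366 CPM, rose by 0.83 and 0.81 on the log2 scale (adjusted p = 0.0217 and 0.0199, edgeR quasi-likelihood F test). For all 5 genes the KO-labelled IMQ mice lay above the KO-labelled control mice, as they did for 23.1% of all genes. The calls of *Dsc1*, *Pkp1* and *Jup* hung on single mice: only 3 genes (*Dsg2*, *Dsg3* and *Cdsn*) were called without KO-labelled IMQ mouse 1. *Dsc1* was also lost without KO-labelled control mouse 3 (adjusted p = 0.0544) and without the filter on low counts (adjusted p = 0.0633), *Pkp1* without KO-labelled control mouse 1 or IMQ mouse 3 (adjusted p = 0.0644 and 0.0661), and *Jup* without KO-labelled control mouse 1 or 3 or IMQ mouse 3 (adjusted p between 0.0561 and 0.0608) in the edgeR test. *Dsp*, which rose in WT skin, had 773, 1560 and 1331 CPM in the KO-labelled control mice, overlapped the KO-labelled IMQ mice and had a log2 fold change of 0.07 (95% interval -0.53 to 0.66). *Dsc3*, with 357, 546 and 534 CPM in the KO-labelled controls, had a log2 fold change of -0.22 (95% interval -0.71 to 0.28). *Dsg1a*, with 280, 405 and 417 CPM in those mice, had one of -0.51 (95% interval -1.07 to 0.05), which was 0.0033 with the counts of the 3 *Dsg1* copies summed.

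Whether IMQ moved the genes differently under the 2 genotype labels was itself tested, as the interaction term. It was called for 0 of the 10 genes by the edgeR quasi-likelihood F test with adjustment, against 2.15% of all genes in either direction, and DESeq2 called 5 of them lower (*Dsg1a*, *Dsg3*, *Dsc3*, *Dsp* and *Pkp1*), as it did 875 of 18576 genes. At an unadjusted p under 0.05 it was lower in KO-labelled mice for 7 of the 10 genes, against 11.9% of all genes. All 10 values were below 0, against 51.5% of all genes, with *Dsg3* at -1.37 (SE 0.38, adjusted p = 0.0767, edgeR quasi-likelihood F test) and *Dsc3* at -1.14 (SE 0.32, adjusted p = 0.0771, same edgeR test). With adjustment, 4 of the genes were called lower without KO-labelled control mouse 1, 3 without WT IMQ mouse 2 and 1 without WT control mouse 3. Over all genes those fits called 342, 912 and 296 lower, against 145 with all mice. Of the cell type markers, 8 of 9 basal keratinocyte genes (median -0.59) and 11 of 12 suprabasal ones (median -0.51, 1 called lower) were below 0. So were 10 of 10 mitotic and 12 of 12 hair markers. Above 0 were 10 of 10 fibroblast genes (median 1.01, 3 called higher) and 8 of 8 endothelial genes (median 0.77). The part of these markers in the differences was not tested. *Cdsn*, *Dsc2* and *Jup* had the smallest differences, -0.26 (95% interval -0.88 to 0.36), -0.28 (95% interval -1.83 to 1.27) and -0.49 (95% interval -1.17 to 0.18). The comparison of IMQ groups, the response of each genotype and the interaction share mice, so their values are not independent of each other.

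Between the control groups none of the 10 genes was called by the edgeR quasi-likelihood F test, 0 had an unadjusted p under 0.05 (against 6.6% of all genes) and DESeq2 called 0. The share of all genes called was 0.0108%. The KO-labelled control values overlapped the WT control values for all 10 genes, while 4.19% of all genes were higher and 5.17% lower without overlap. The log2 fold changes ran from 0.09 for *Jup* to 0.46 for *Dsc1*, with 95% intervals of -0.39 to 0.57 and -0.26 to 1.19.

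*Dsg2* differed from the other genes in its pattern over mice. It fell with IMQ in the KO-labelled mice, from 26.7, 53.4 and 41.2 CPM to 13.0, 15.6 and 12.8 CPM, with no overlap (log2 fold change -1.55, SE 0.27, adjusted p = 0.00231, edgeR quasi-likelihood F test). Over the 12 mice it correlated with the other 9 genes at a median Pearson r of -0.47, whereas the median over all 45 pairs of the 10 genes was 0.68. Its level ran with 12 hair shaft and inner root sheath markers, with an r of 0.96 over 12 mice, 0.97 over the 6 control mice and 0.71 over the 6 IMQ mice. Over 12 mice its r was 0.67 with mitotic, -0.87 with immune cell, -0.68 with fibroblast, -0.68 with suprabasal and -0.63 with basal markers. These correlations describe 12 libraries that share their groups and treatment. The summed hair markers were 3184, 14.8 and 1772 CPM in the WT control mice and 188, 11090 and 4256 CPM in the KO-labelled control mice. In the IMQ mice they were 17.0, 18.3 and 96.1 CPM with the WT label and 16.1, 20.8 and 11.98 CPM with the KO label. Of the 12 markers, 6 (hair keratins such as *Krt31* and *Krt86*) had at most 3 counts in every KO-labelled IMQ mouse. WT control mouse 2 had hair markers at the level of the IMQ mice, and its *Dsg2* level of 20.05 CPM was also within their range. The part of hair follicle RNA in the *Dsg2* values was not tested. *Dsg4*, the desmoglein of the hair shaft cortex, had 325, 0 and 181 counts in the WT control mice and 0, 4 and 13 in the WT IMQ mice. In KO-labelled mice it had 25, 1082 and 555 counts without IMQ and 0, 0 and 0 with it, at least 154.6-fold lower against a floor of 3 counts per library, a floor that covers counting error only (adjusted p = 0.0346, edgeR quasi-likelihood F test). The bound moved with single control mice and was 71.3-fold without KO-labelled control mouse 2.

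**Figure D4:**
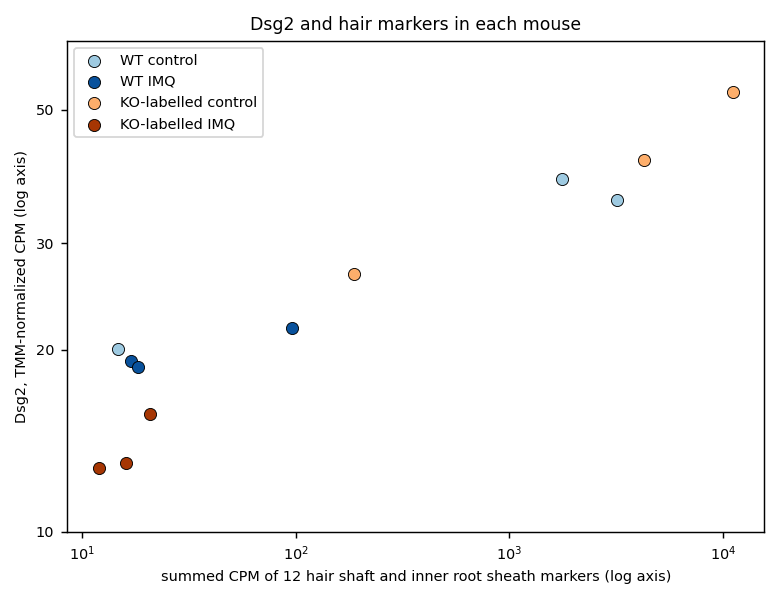
*Dsg2* level (TMM-normalized CPM, log axis) against the summed level of 12 hair shaft and inner root sheath markers (CPM, log axis) in each of the 12 mice, coloured by group. The 6 IMQ mice and WT control mouse 2 lie at the lower left, at 12.8 to 21.8 CPM of *Dsg2*, and the other 5 control mice at 26.7 CPM and above.

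Of 9 further desmosome genes, 5 rose with IMQ in WT skin and 1 fell, against 14.2% and 14.3% of all genes. The risers were *Dsg1b*, the envelope plakins *Evpl* (envoplakin) and *Ppl* (periplakin), *Pkp3* (plakophilin 3) and *Perp*, a membrane protein of desmosomes. Their log2 fold changes were 2.51 (SE 0.26), 1.68 (SE 0.29), 1.17 (SE 0.22), 1.495 (SE 0.30) and 1.21 (SE 0.23) in that order. *Pkp2* (plakophilin 2), the plakophilin of simple epithelia and heart, fell from 7.61, 5.92 and 5.89 CPM to 2.60, 3.22 and 2.66 CPM (log2 fold change -1.20, SE 0.38, adjusted p = 0.035, edgeR quasi-likelihood F test). *Kazn* (kazrin), at 0.57, and *Dsg1c*, at -0.83 on the log2 scale and under 2 CPM in every mouse, were not called, nor was *Dsg4*. In KO-labelled mice *Dsg1b* rose by 1.74 (SE 0.26) and *Pkp2* fell by 1.15 on the log2 scale. Between the IMQ groups 0 of these 9 genes were called by the edgeR quasi-likelihood F test, while 6 of the 9 (*Dsg1b*, *Pkp3*, *Perp*, *Ppl*, *Evpl* and *Kazn*) had log2 fold changes between -0.80 and -0.58 with an unadjusted p under 0.05, against 14.5% of all genes in that direction.

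Genes of neighbouring junctions were counted in the same WT comparison, in which 14.2% of all genes rose and 14.3% fell. Differences between these lists and the 10 desmosome genes were not tested. Of 10 adherens junction genes 1 rose, *Nectin1* (log2 fold change 1.09, SE 0.22), and the median of the list was 0.36. Of 9 hemidesmosome genes, which fix basal cells to the basement membrane, 7 rose, among them *Itga6* (1.64, SE 0.14) and *Itgb4* (1.15, SE 0.15), and the median was 1.04. This list shares genes with the basal keratinocyte markers, among them *Itga6* and *Itgb4*, so the 2 lists are not separate observations. Of 11 tight junction genes 2 rose and 3 fell, *Marveld2* (-1.48, SE 0.27), *Ocln* (-1.09, SE 0.29) and *Cgn* (-0.99, SE 0.27), with a median of -0.18. Of 10 proteases and inhibitors that act on corneodesmosomes 9 rose. Among these, the kallikrein *Klk6* rose by 3.36 on the log2 scale (SE 0.22), the kallikrein *Klk14* from a mean of 0.109 to 15.6 CPM and the inhibitor *Spink12* from 0.0969 to 16.9 CPM. These control means are within the level that 3 counts give, so no fold is stated for *Klk14* and *Spink12*. Between the IMQ groups, log2 fold changes were below 0 for 9 of 10 adherens junction and 7 of 9 hemidesmosome genes. So were those of 10 of 11 tight junction genes and 8 of 10 proteases and inhibitors, against 51.2% of all genes. Of these lists 1, 2, 0 and 1 genes were called lower in that order. Values below 0 were thus not particular to the 10 desmosome genes.

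**Figure D5:**
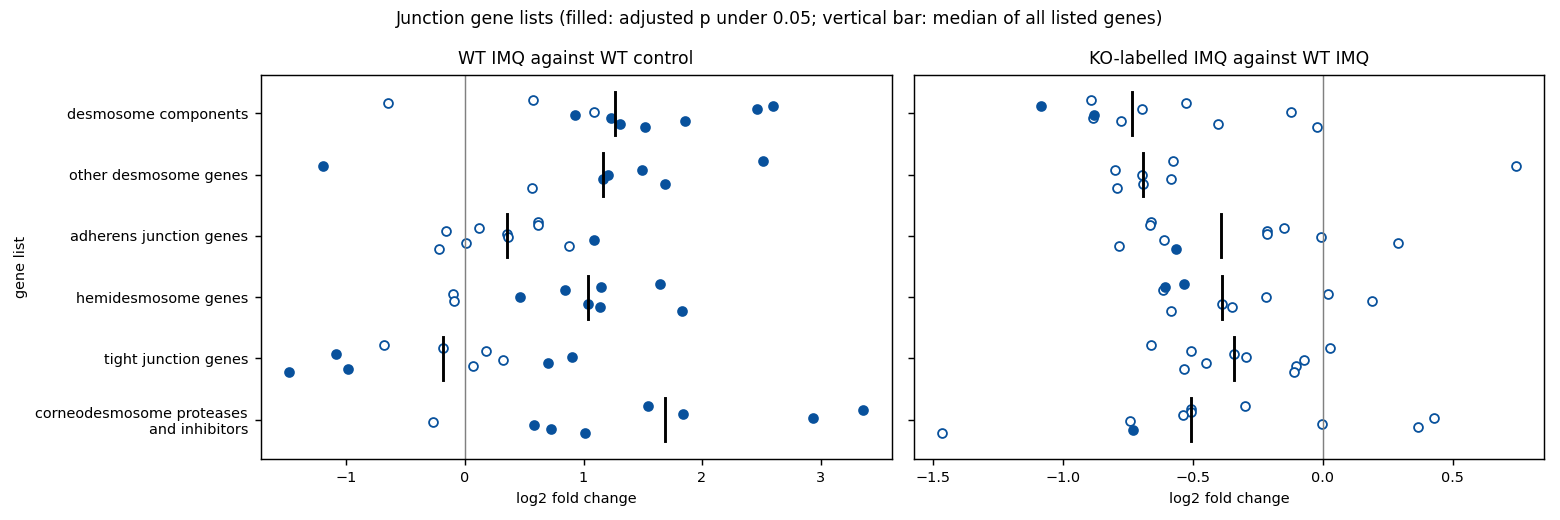
Log2 fold changes of the desmosome genes and 5 further lists in WT IMQ against WT control mice (left) and KO-labelled IMQ against WT IMQ mice (right), 1 point per gene, filled where the adjusted p was under 0.05. Genes with a mean under 1 CPM in either compared group are not drawn, and the bars mark the median of all listed genes, 1.27 on the left and -0.74 on the right for the 10 desmosome genes.

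Within each group, a single mouse had the lowest level for most of the 10 genes. WT control mouse 2 had the lowest level of its group for 9 of the 10 genes, WT IMQ mouse 2 for 9, KO-labelled control mouse 1 for all 10 and KO-labelled IMQ mouse 2 for 8. These are different animals, and whether the amount of epidermis in the samples differed was not tested. How often each mouse was lowest over all genes was not counted, so the pattern is not shown to be particular to the 10 genes. Over the 12 mice *Dsg3* and *Pkp1* had the highest correlation of any pair, with an r of 0.99, and *Dsg2* and *Cdsn* the lowest, with one of -0.71. These and the following correlations contain the differences between the groups, so they do not measure variation within a group. *Dsg3*, *Pkp1*, *Jup* and *Dsc1* followed the summed basal keratinocyte markers at an r of 0.97, 0.97, 0.95 and 0.94, and *Dsg1a* at one of 0.35. With the summed suprabasal markers the r was 0.91, 0.92, 0.92, 0.92 and 0.31 in the same order of genes. With summed immune cell markers it was 0.84, 0.82, 0.82, 0.83 and -0.039. For *Dsg3*, *Pkp1*, *Jup* and *Dsc1* a high r was therefore not particular to the basal list. The tested genes outside the 10 whose levels were most like their mean over the 12 mice were *Pkp3* (r = 0.991), the kinase gene *Limk2* (0.989), the serpin gene *Serpinb5* (0.986), *Mpp7* (0.985) and *Cep170b* (0.984).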

How the data were processed

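The authors deposited 1 table of raw counts, whole numbers of reads per gene and library, for 12 back skin libraries of paired 150 bp reads. The submitters' processing notes name HISAT and mm8. The counter, its strand setting and the annotation are not given in the sources used here, so reads of the antisense *Gm16090* (330 bp of shared exon with *Dsg2*) and of *Gm10129* (499 bp with *Dsp*) could not be told apart if strand was ignored. Those genes hold 15 and 27 counts in all libraries. Symbols, coordinates and exon lengths came from GENCODE M21 (GRCm38), which matched 52073 of 56923 identifiers, and 0.567% of the counts lay on the others. Library totals were 16448226 to 28592110, and 3 counts correspond to 0.0984 to 0.201 TMM-normalized CPM.

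Counts were normalized by TMM, filtered with filterByExpr (minimum count 10, minimum total 15) and fitted with edgeR 4.0.16 (R 4.3.3, limma 3.58.1) as 4 group means over 12 mice, with robust quasi-likelihood F tests and Benjamini-Hochberg adjustment over 18529 genes. The common biological coefficient of variation was 0.253. Shares were compared by two-sided exact permutation tests (scipy 1.17.1). The scripts were tested on simulated counts. Alternatives were RLE size factors, DESeq2 1.42.0, other filters, a fit on the compared mice, a replicate block, leaving out each mouse, a fold above 2 with an unadjusted p under 0.05, and summed *Dsg1* copies. Named are the 10 genes, 9 further desmosome genes, up to 3 genes per junction list with the largest change among those called in WT mice, *Lcn2*, and the 5 genes most like the mean of the 10. A gene that this rule would name is not reported here. The genes, lists and tests were chosen with earlier results of these data known.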

Additional observations from a re-analysis of the deposited data

How the results depend on the processing

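The number of genes called was 6 to 8 of 10 under every alternative for IMQ in WT mice (7 as reported) and 0 under every alternative between the control groups. Between the IMQ groups it was 2 as reported, 1 with RLE size factors, 1 without the filter on low counts, 1 with a fold above 2 and an unadjusted p, 5 with DESeq2, 5 with the compared mice only, 0 with the replicate block, and 0 to 5 with single mice left out. For IMQ in KO-labelled mice it was 6 as reported and 3 to 6 with single mice left out. For the interaction it was 0 as reported, 5 with DESeq2, 6 with the fold rule and 0 to 4 with single mice left out. The fold rule uses no adjustment and its share over all genes is not given, so its counts are not read as a result about these genes. Over all genes, 405 higher and 481 lower calls between the IMQ groups became 1198 and 1261 with DESeq2. They were 1077 and 817 of 16991 genes with the compared mice only, and 77 and 59 with the replicate block. The replicate numbers pair no animals, and the deviations of mice with the same number correlated at a mean of -0.05 (18 pairs, 1 over 0.1). The block changed no other call of the 10 genes.

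Of the values of single genes under alternatives, 592 kept their direction and side of the threshold, 25 passed it where the reported value had not, 24 no longer passed it, and 14 reversed, none of which had been called. With single mice left out, *Dsc2* lay between -1.22 and 0.24 between the IMQ groups, -0.29 and 1.17 for IMQ in KO-labelled mice and -1.38 and 0.080 for the interaction. *Cdsn* lay between -0.17 and 0.23 between the IMQ groups, *Dsp* between -0.18 and 0.28 for IMQ in KO-labelled mice and *Jup* between -0.10 and 0.26 between the control groups, all as log2 fold changes. With the *Dsg1* copies summed, *Dsg1a* moved from -0.51 to 0.0033 for IMQ in KO-labelled mice. The causes were not tested. With 3 mice per group, a gene that was not called is not shown to be unchanged. The smallest difference that could be detected was not computed.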
